A study of Mus musculus with 10 samples.

Results

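The mitochondrial genome of the mouse was read here as 37 genes, all those in the annotation whose symbol starts with mt-, out of 45706 genes measured in mouse spleen cells by RNA sequencing. They comprise 13 mRNAs, 2 rRNAs and 22 tRNAs, and all 37 were found in the expression table by gene identifier. The libraries came from T cells of Cd47ΔT mice (n = 2), T cells of Cd47f/f mice (n = 2), type 2 conventional dendritic cells (cDC2s) of Cd47ΔT mice (n = 3) and cDC2s of Cd47f/f mice (n = 3). Cd47f/f denotes a floxed Cd47 allele, and Cd47ΔT a deletion of Cd47 named for T cells. No source used here gives the Cre line, the exons removed, the age of the animals or the way the cells were isolated. The labels do not say whether libraries of a group came from separate mice, so the p-values measure a spread between libraries that may be technical. T cell libraries were made with a TruSeq stranded mRNA kit, which selects polyadenylated RNA, and cDC2 libraries with a SMART-seq stranded kit from RNeasy micro extracts, so cell type and kit cannot be told apart. Values are TPM, a level per transcript length that is scaled to a sum of 1000000 in each library. Because TPM hold no read counts, the depth behind each value is unknown.

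Mitochondria keep a small circular chromosome that is transcribed from both strands into long precursors. Excision of the tRNAs that lie between the other genes releases the mRNAs and the rRNAs. The mRNAs encode core membrane subunits of respiratory complexes I, III, IV and V, which pass electrons from NADH to oxygen and make ATP, and all other subunits of these complexes come from nuclear genes. In T cells this system is known for the switch between the low metabolic demand of the resting state and the growth that follows activation.

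On chromosome M of GRCm38, 12 of the 13 mRNAs and 14 of the 22 tRNAs lie on the plus strand, while mt-Nd6 and 8 tRNAs lie on the minus strand. The mRNAs measure 204 to 1824 bases. Neighbouring reading frames share bases: 43 between mt-Atp8 and mt-Atp6, 7 between mt-Nd4l and mt-Nd4, and 1 between mt-Atp6 and mt-Co3. The shared bases of the ATP synthase pair are shown because reads that fall in them fit either gene, with the overlap in capitals (GENCODE release M21 transcripts, GRCm38, plus strand, mt-Atp8 at chrM:7912-7969 and mt-Atp6 at chrM:7927-7984).
mt-Atp8: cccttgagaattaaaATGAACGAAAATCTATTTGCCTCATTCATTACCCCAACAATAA
mt-Atp6: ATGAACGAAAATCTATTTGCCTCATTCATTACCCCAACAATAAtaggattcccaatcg

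A complete stop codon closes 10 of the 13 annotated mRNAs. The other 3 end in a lone T, the first base of a stop codon that is completed when the poly(A) tail is added. Their last 16 bases are shown because they tie these messages to polyadenylation, the feature that the T cell kit selects, with that base in capitals (GRCm38, plus strand, chrM:9375-9390, chrM:11529-11544 and chrM:15273-15288).
mt-Co3: tattgatgaggatctT
mt-Nd4: acaggcctgacaataT
mt-Cytb: ctaaaattatatccaT

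A stretch of the mitochondrial genome also lies in the nuclear genome, at chr1:24611535-24616197 on the minus strand. It holds 7 annotated unprocessed pseudogenes that match mitochondrial mRNAs at 99% identity or more, within a span of 4663 bases. Over their aligned bases, 5 of the 7 copies have no difference from the mitochondrial gene. These are Gm28661 (681 of the 684 bases of mt-Co2), Gm28437 (783 of 784 bases of mt-Co3), Gm10925 (678 of 681 bases of mt-Atp6), Gm10222 (294 of 297 bases of mt-Nd4l) and Gm28439 (876 of 1378 bases of mt-Nd4). Gm28438 matches 345 of the 348 bases of mt-Nd3 with 1 difference, T3C, and Gm29216 matches 483 of the 1545 bases of mt-Co1 with 1 difference, A1066T. Positions count from 1 at the start of the mitochondrial gene, and the mitochondrial base comes first. The starts of 2 pairs are shown because no read within the first pair can be placed by its letters, and because a single base separates the second, given in capitals (GRCm38, mt-Co3 at chrM:8607-8666 plus strand, Gm28437 at chr1:24613912-24613971 minus strand, mt-Nd3 at chrM:9459-9476 plus strand, Gm28438 at chr1:24613102-24613119 minus strand).
mt-Co3: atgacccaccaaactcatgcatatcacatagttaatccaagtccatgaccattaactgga
Gm28437: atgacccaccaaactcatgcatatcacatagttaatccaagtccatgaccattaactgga
mt-Nd3: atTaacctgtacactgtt
Gm28438: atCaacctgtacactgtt

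The targeted gene, Cd47, had 40.4 and 51.7 TPM in Cd47ΔT T cells, against 138 and 233 TPM in Cd47f/f T cells, and was lower in both Cd47ΔT libraries (log2 fold change -1.95, SE 0.26, adjusted p = 0.011 by limma with Benjamini-Hochberg adjustment). In cDC2s Cd47 was not called, with a mean of 148.5 TPM in Cd47ΔT and 148.7 TPM in Cd47f/f libraries (log2 fold change -0.0022, SE 0.10, limma adjusted p = 0.99). The 12 T cell markers summed to 7901 to 8671 TPM in Cd47ΔT T cells and 8553 to 8741 TPM in Cd47f/f T cells, and 0 of 12 were called by limma, with 2 at an unadjusted p under 0.05. Many markers of other cells were higher in the Cd47ΔT T cell libraries. The 9 macrophage markers summed to 146 to 236 TPM in Cd47ΔT and 17.8 to 23.0 TPM in Cd47f/f T cells, with 9 of 9 called higher, against 8.5% of all genes tested in T cells. For 8 B cell markers the sums were 57.5 to 135 TPM in Cd47ΔT and 15.9 to 18.2 TPM in Cd47f/f T cells, with 5 of 6 tested called higher. For 8 neutrophil and monocyte markers they were 1781 to 1889 TPM in Cd47ΔT and 611 to 766 TPM in Cd47f/f T cells, with 6 of 7 tested called higher and Ly6g at 0 in all 4 libraries. Lists for NK cells (3 of 5 tested), erythroid cells (3 of 4), cDC1s (4 of 4), cDC2s (6 of 8) and plasmacytoid dendritic cells (3 of 5) also held genes called higher, against the same 8.5% of all genes. The sums of the cDC2 list overlapped, at 152.5 to 179 TPM in Cd47ΔT and 143 to 152.9 TPM in Cd47f/f T cells. The platelet list had no gene tested, with Pf4 at 0. Whether such cells were present, and their part in the mitochondrial values, was not tested. In cDC2 libraries the cDC2 markers summed to 1533 to 1567 TPM in Cd47ΔT and 1750 to 1867 TPM in Cd47f/f cells, with 2 of 12 called lower (Itgam and Cd209a, limma adjusted p = 0.012 and 0.020, against 0.381% of all genes) and 5 at an unadjusted p under 0.05. In the same libraries 3 of 12 T cell markers (Cd3g, Trbc2 and Bcl11b) were at 0, and all 12 summed to 14.95 to 23.8 TPM over both genotypes. cDC1 markers summed to 848 to 1058 TPM in Cd47ΔT and 962.5 to 1173 TPM in Cd47f/f cDC2s. For macrophage markers the sums were 126 to 190 TPM in Cd47ΔT and 172 to 242 TPM in Cd47f/f cDC2s. For erythroid markers they were 34.9 to 182 TPM and 17.9 to 104 TPM. No tested gene of these lists was called by limma. Their part in the mitochondrial values was not tested.

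All 22 tRNAs, of 59 to 75 bases, were listed at 0 TPM in all 10 libraries. The longest and the shortest are shown for their size (GRCm38, plus strand, mt-Tl1 at chrM:2676-2750 and mt-Ts2 at chrM:11613-11671).
mt-Tl1: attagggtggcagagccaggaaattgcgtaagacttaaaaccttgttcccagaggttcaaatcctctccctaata
mt-Ts2: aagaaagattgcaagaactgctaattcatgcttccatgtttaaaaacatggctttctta
Other short genes had the same value. Of 1016 genes whose longest annotated transcript has 75 bases or fewer, 0 were above 0 in any T cell or cDC2 library, and of 1387 genes of 76 to 100 bases also 0. In the class of 101 to 150 bases, 28 of 3308 genes were above 0 in T cells and 68 in cDC2s. For 201 to 300 bases, 117 of 1366 genes were above 0 in T cells and 140 in cDC2s. The 0 of the tRNAs is therefore shared with every gene of their length in the table, and no genotype comparison of tRNAs was possible.

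For the messages with a copy on chromosome 1, most of the TPM stood on the copy in several pairs. In T cells mt-Co2, the subunit that takes electrons from cytochrome c, held 2.34% and 1.67% of the TPM of its pair in Cd47ΔT, and 2.32% and 2.12% in Cd47f/f libraries. Its copy Gm28661 stood at 10711 and 10538 TPM in Cd47ΔT and 14153 and 13348 TPM in Cd47f/f T cells. For mt-Co3, a core subunit of complex IV, the share was 3.92% and 0.877% in Cd47ΔT and 2.14% and 1.62% in Cd47f/f T cells. In all 4 T cell libraries, then, nearly the whole level of these 2 messages was assigned to nuclear pseudogenes.

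Other pairs were split differently between genotypes. mt-Atp6, the proton channel subunit of ATP synthase, held 2.18% and 1.53% of its pair in Cd47ΔT and 6.75% and 3.70% in Cd47f/f T cells. mt-Nd4l, a small membrane subunit of complex I, held 32.2% and 24.8% in Cd47ΔT and 66.0% and 56.6% in Cd47f/f T cells. Both shares were lower in each Cd47ΔT T cell library than in either Cd47f/f library. For mt-Nd3, another small complex I subunit, the share was 17.1% and 11.3% in Cd47ΔT and 21.03% and 21.2% in Cd47f/f T cells, and for mt-Co1, the catalytic subunit of complex IV, 78.7% and 81.6% in Cd47ΔT and 82.0% and 88.0% in Cd47f/f T cells. In cDC2s the split of mt-Nd3 differed most among libraries, at 61.5%, 48.2% and 8.47% in Cd47ΔT and 83.7%, 100% and 76.7% in Cd47f/f cells. The deposited value of such a gene depends on this split, so each of them is given below both as deposited and as a level summed with its copy, in which the copy's TPM is weighted by its length relative to the gene. The plot of each pair's split shows both parts in every library.

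**Figure D1:**
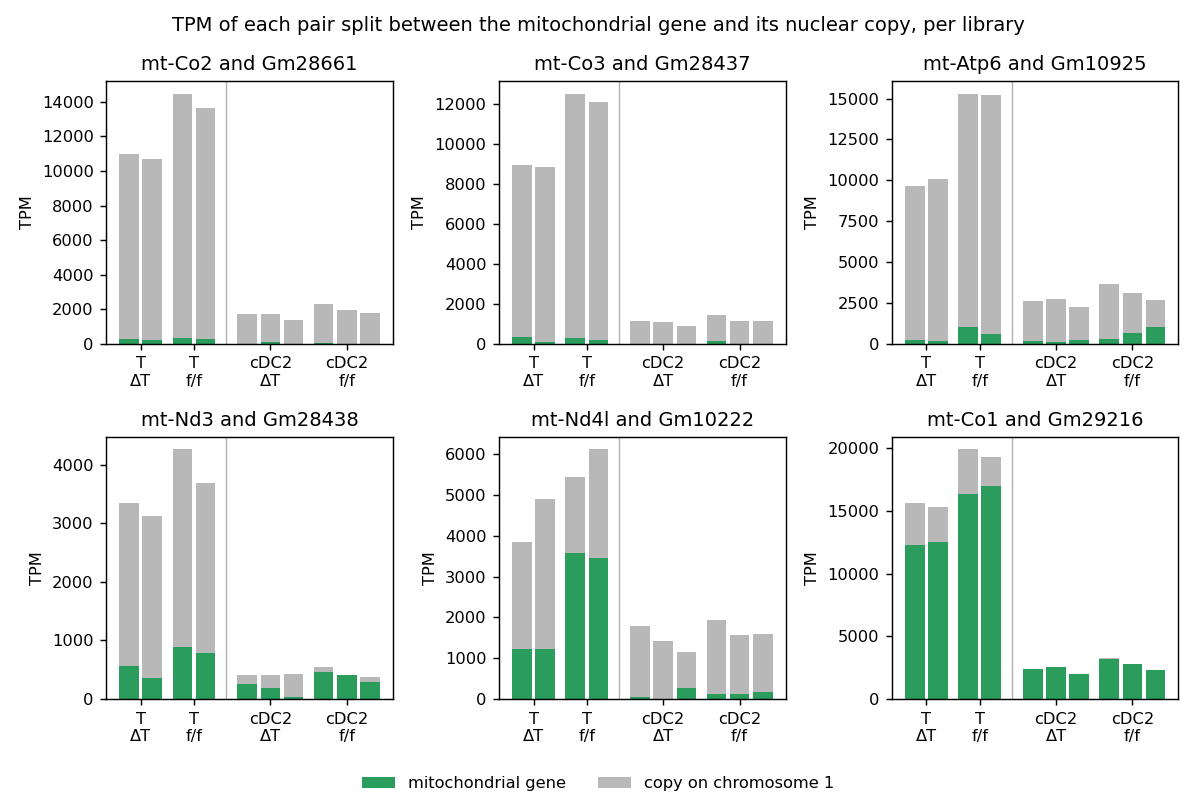
Deposited TPM of 6 mitochondrial mRNAs (green) stacked with the TPM of their copy on chromosome 1 (grey), 1 bar per library, Cd47ΔT left of Cd47f/f in T cells and in cDC2s. Nearly all of mt-Co2 and mt-Co3 stands on the copy, while in T cells 24.8% and 32.2% of the mt-Nd4l pair stands on the gene in Cd47ΔT and 56.6% and 66.0% in Cd47f/f libraries.

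The question of the first comparison was how the genotype changed each mitochondrial gene in T cells. The 13 mRNAs together were lower in Cd47ΔT T cells. As deposited they summed to 40968 and 43742 TPM in Cd47ΔT and 69911 and 65529 TPM in Cd47f/f T cells, and with their copies they made up 7.60% and 8.01% of all TPM in Cd47ΔT and 11.7% and 11.2% in Cd47f/f T cells. In such bulk samples, fewer cells with a high level and less RNA per cell cannot be told apart. Of the 15 members tested (those that reached 1 TPM in 2 or more of the T cell libraries), 11 were called lower and 0 higher, where a call is a limma adjusted p under 0.05 over all genes tested. Over all 12453 genes tested, 0.875% were called lower and 8.5% higher. The median log2 fold change was -0.54 over the 15 members and 0.10 over all genes.

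Among complex I subunits, mt-Nd1, at the junction of the membrane and peripheral arms, had 4144 and 4217 TPM in Cd47ΔT and 5623 and 5482 TPM in Cd47f/f T cells. The proton-pumping subunit mt-Nd2 had 2049 and 2199 TPM in Cd47ΔT and 3249 and 3083 TPM in Cd47f/f T cells. Its relative mt-Nd4 had 2488 and 2763 TPM in Cd47ΔT and 4040 and 3807 TPM in Cd47f/f T cells. For each of these 3 genes both Cd47ΔT libraries lay below both Cd47f/f libraries, and all 3 were called, with log2 fold changes of -0.41 (SE 0.080), -0.58 (SE 0.088) and -0.58 (SE 0.094) and limma adjusted p of 0.030, 0.015 and 0.018. The remaining large pump subunit, mt-Nd5, had 1138 and 1359 TPM in Cd47ΔT and 1814 and 1853 TPM in Cd47f/f T cells, and mt-Nd6, the minus-strand message, had 1739 and 1794 TPM in Cd47ΔT and 2339 and 2252 TPM in Cd47f/f T cells. Both were lower without overlap (log2 fold changes -0.56, SE 0.11, and -0.38, SE 0.084, limma adjusted p = 0.030 and 0.043).

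The 2 small complex I messages with nuclear copies gave other values as deposited and in the sum. mt-Nd4l had 1238 and 1215 TPM in Cd47ΔT and 3589 and 3462 TPM in Cd47f/f T cells as deposited, a log2 fold change of -1.52 (SE 0.083, limma adjusted p = 0.0013). Its copy Gm10222 had 2610 and 3693 TPM in Cd47ΔT and 1851 and 2659 TPM in Cd47f/f T cells, a log2 fold change of 0.48 (SE 0.22, limma adjusted p = 0.28). The sum of both was 3822 and 4871 TPM in Cd47ΔT and 5421 and 6094 TPM in Cd47f/f T cells, a log2 fold change of -0.41 (SE 0.13) that was not called (limma adjusted p = 0.13). The gene and its copy thus had differences of opposite sign, and the sum moved about as much as mt-Nd1. mt-Nd3 was at 573 and 353 TPM in Cd47ΔT and 896 and 783 TPM in Cd47f/f T cells as deposited (log2 fold change -0.90, SE 0.22, limma adjusted p = 0.061). Summed with Gm28438 it was at 3321 and 3100 TPM in Cd47ΔT and 4234 and 3661 TPM in Cd47f/f T cells (log2 fold change -0.30, SE 0.10, limma adjusted p = 0.15), and neither value was called.

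mt-Cytb, the quinol-oxidising core of complex III, had 4861 and 5000 TPM in Cd47ΔT and 6960 and 6996 TPM in Cd47f/f T cells. It has no near-identical copy, and it was called lower (log2 fold change -0.50, SE 0.079, limma adjusted p = 0.017).

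In complex IV, mt-Co1 had 12309 and 12520 TPM in Cd47ΔT and 16334 and 16948 TPM in Cd47f/f T cells and was called lower (log2 fold change -0.42, SE 0.078, limma adjusted p = 0.026). Summed with Gm29216 it was at 13373 and 13417 TPM in Cd47ΔT and 17473.5 and 17687 TPM in Cd47f/f T cells (log2 fold change -0.39, SE 0.074, limma adjusted p = 0.027). mt-Co2 had 256 and 179 TPM in Cd47ΔT and 336 and 288 TPM in Cd47f/f T cells as deposited and was not called (log2 fold change -0.54, SE 0.19, limma adjusted p = 0.15). The sum with Gm28661 was 10921 and 10671 TPM in Cd47ΔT and 14426 and 13578 TPM in Cd47f/f T cells and was called lower (log2 fold change -0.37, SE 0.079, limma adjusted p = 0.036). mt-Co3 had 351 and 77.3 TPM in Cd47ΔT and 268 and 196 TPM in Cd47f/f T cells as deposited, so the genotypes overlapped. Summed with Gm28437 it was at 8935 and 8805 TPM in Cd47ΔT and 12488 and 12058 TPM in Cd47f/f T cells. This sum was called lower (log2 fold change -0.47, SE 0.076, limma adjusted p = 0.018), whereas the deposited value had a like log2 fold change of -0.47 with an SE of 0.64 (limma adjusted p = 0.79).

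The 2 ATP synthase genes had the lowest values relative to Cd47f/f among the sums. mt-Atp8, a small membrane subunit, had 9610.0 and 11910 TPM in Cd47ΔT and 23428 and 19814 TPM in Cd47f/f T cells. It was called lower (log2 fold change -1.01, SE 0.14, limma adjusted p = 0.011), and it ranked first among all genes in both Cd47f/f T cell libraries. mt-Atp6 had 211 and 154 TPM in Cd47ΔT and 1034 and 564 TPM in Cd47f/f T cells as deposited (log2 fold change -2.08, SE 0.29, limma adjusted p = 0.013). Summed with Gm10925 it was at 9625 and 10023 TPM in Cd47ΔT and 15252 and 15183 TPM in Cd47f/f T cells (log2 fold change -0.63, SE 0.076, limma adjusted p = 0.0088). The call of mt-Atp6 held in both forms, but the size of the change differed between the forms. The ratio of mt-Atp8 to mt-Atp6 with copies was 0.998 and 1.19 in Cd47ΔT and 1.54 and 1.305 in Cd47f/f T cells. In cDC2s this ratio overlapped, at 1.202 to 1.394 in Cd47ΔT and 1.144 to 1.408 in Cd47f/f libraries. The 2 reading frames share 43 bases, in which reads fit either gene. The part of read assignment in the ratio was not tested.

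Both rRNAs stood below every mRNA in T cells where copies were summed in. As deposited mt-Rnr1 lay above mt-Co2 and mt-Co3 in all 4 libraries and above mt-Atp6 in both Cd47ΔT libraries. In Cd47ΔT library 2 mt-Rnr1 also lay above mt-Nd3, and mt-Rnr2 above mt-Co2, mt-Co3 and mt-Atp6. In both Cd47f/f libraries mt-Rnr2 lay above mt-Co3. mt-Rnr1, the 12S rRNA of the small mitochondrial ribosomal subunit, had 376 and 398 TPM in Cd47ΔT and 389 and 434 TPM in Cd47f/f T cells, with overlapping genotypes (log2 fold change -0.09, SE 0.10, limma adjusted p = 0.76). mt-Rnr2, the 16S rRNA of the large subunit, had 197 and 194 TPM in Cd47ΔT and 281 and 285 TPM in Cd47f/f T cells and was called lower (log2 fold change -0.53, SE 0.097, limma adjusted p = 0.026). The ratio of mt-Rnr2 to mt-Rnr1 was 0.525 and 0.489 in Cd47ΔT and 0.722 and 0.656 in Cd47f/f T cells. The T cell kit selects polyadenylated RNA, so these values need not follow the amount of rRNA in the cells. The part of this selection in the call and in the ratio was not tested.

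With copies summed in, 12 of 15 members were called lower in T cells, against 0.86% of 12447 genes, and 10 members were called in both forms. The log2 fold changes of the 15 sums ran from -1.01 to -0.09, with a median of -0.47. Of the deposited values, 13 of 15 did not overlap between genotypes and were lower in both Cd47ΔT libraries, against 11.9% of all genes. The calls depended on the scaling and on the estimate of the spread. After median-of-ratios scaling, with factors taken over all 10 libraries, 3 members were called lower (mt-Atp6, mt-Nd4l and mt-Rnr2), against 1.96% of all genes. The factors were 1.12 and 1.15 for Cd47ΔT and 0.939 and 1.13 for Cd47f/f T cells. Without a variance trend 3 members were called lower, against 0.65%. When T cells and cDC2s were fitted together 1 member was called lower, against 0.747% of all genes, and when no genes were filtered out 0 were, against 0.00489% of 20437 genes. Without Cd47ΔT library 1 the count was 6, against 0.41% of all genes, and without Cd47ΔT library 2 it was 5, against 0.458%. With copies summed in these counts were 2, against 0.378%, and 5, against 0.474%. Under all of these settings every member's log2 fold change stayed negative except that of mt-Co3 as deposited, which was 0.61 without Cd47ΔT library 2.

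**Figure D2:**
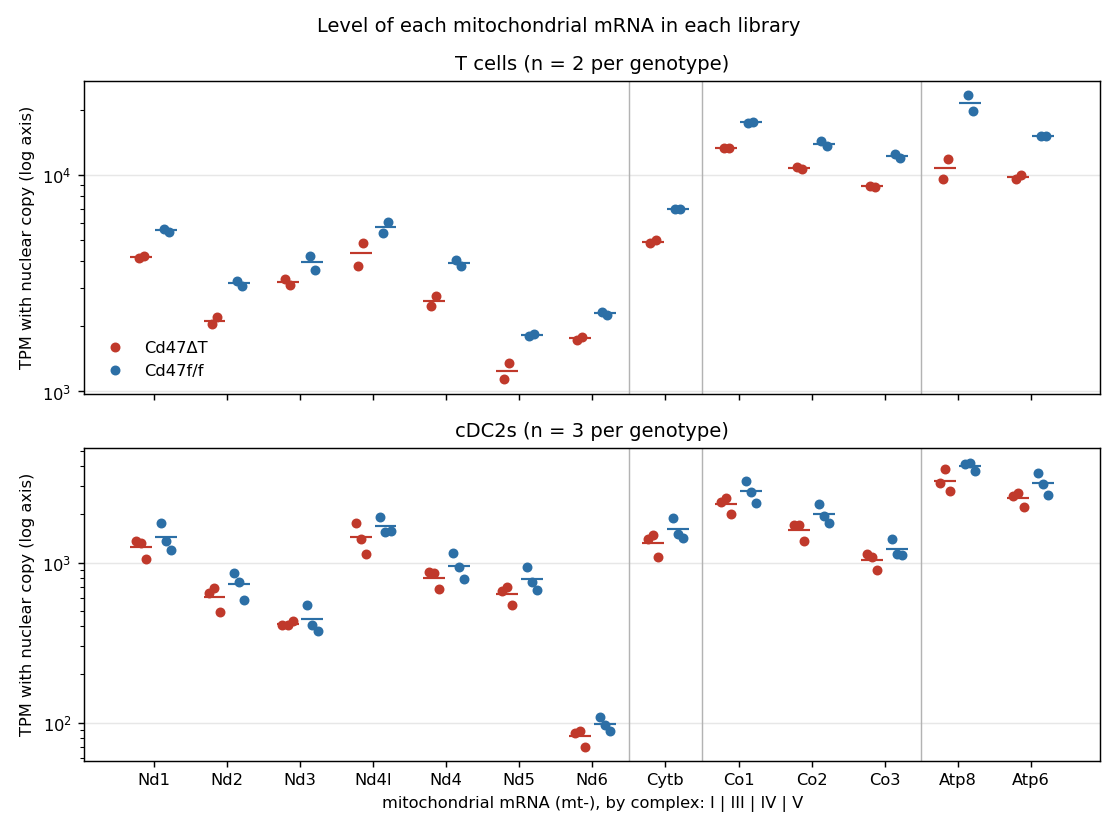
TPM of each of the 13 mitochondrial mRNAs, summed with its nuclear copy where there is one, in every library (points) with the group mean (line), on a log axis, Cd47ΔT left of Cd47f/f. In T cells no point of Cd47ΔT reaches a point of Cd47f/f for any of the 13 mRNAs. In cDC2s the points of both genotypes overlap for 12 of the 13. T cells had fewer libraries per group than cDC2s. Of all single genes tested, 48.9% did not overlap in either direction in T cells and 19.9% in cDC2s. Those lower in Cd47ΔT without overlap were 11.9% in T cells and 13.5% in cDC2s.

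**Figure D3:**
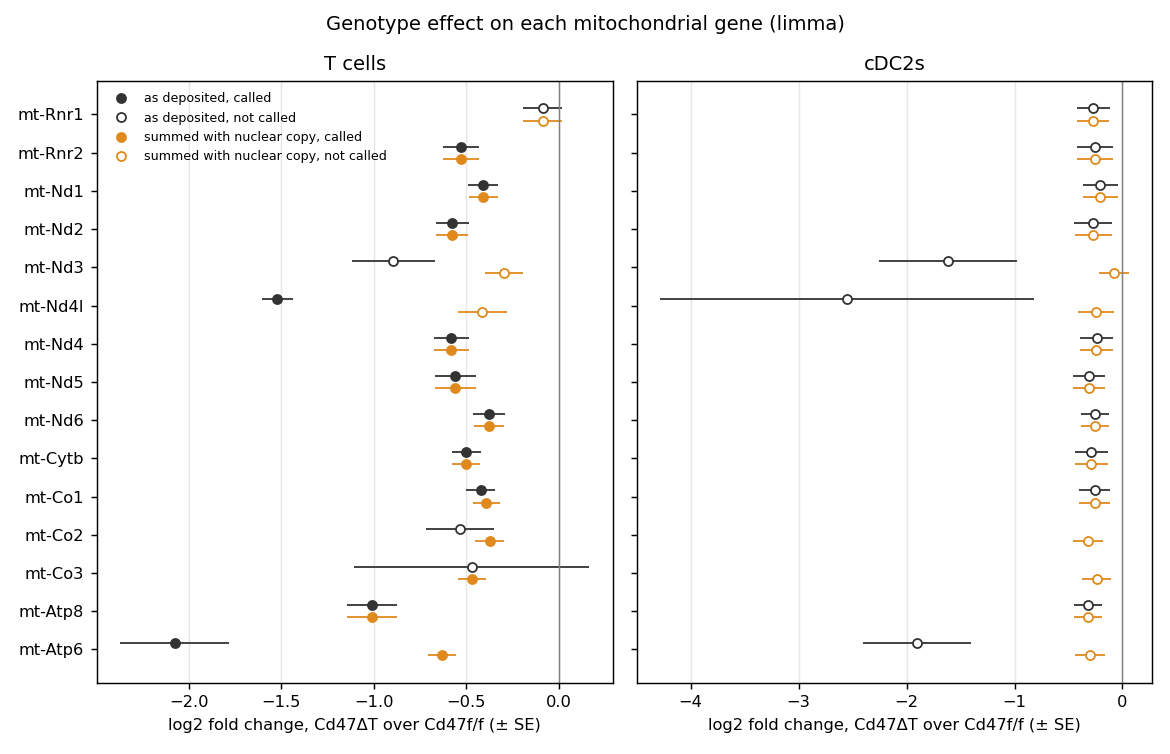
Log2 fold change of Cd47ΔT over Cd47f/f with its standard error for each of the 13 mRNAs and 2 rRNAs, as deposited (dark) and summed with the nuclear copy (orange), filled where called by limma. In T cells mt-Atp6 moves from -2.08 to -0.63 and mt-Nd4l from -1.52 to -0.41 when the copy is added, and in cDC2s no point is filled; mt-Co2 and mt-Co3 as deposited did not pass the filter there. The panels have different axes.

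The same question was then put to cDC2s of the same 2 genotypes. Their mitochondrial mRNAs summed to 11037, 11867 and 9280.4 TPM in Cd47ΔT and 15094, 13581 and 12360 TPM in Cd47f/f cDC2s as deposited, without overlap. With copies they made up 1.82%, 1.89% and 1.48% of all TPM in Cd47ΔT and 2.39%, 2.06% and 1.83% in Cd47f/f cDC2s, with overlap. No member was called: 0 of the 13 members tested, with 3 at an unadjusted limma p under 0.05, against 0.381% of 12058 genes called lower. All 13 log2 fold changes were negative, with a median of -0.27 against -0.07 over all genes. In the same libraries small non-coding RNAs took 25.2%, 22.1% and 21.8% of all TPM in Cd47ΔT and 17.7%, 21.3% and 16.1% in Cd47f/f cDC2s, and their part in the mitochondrial values was not tested.

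Complex I messages without a near-complete copy overlapped between genotypes in cDC2s. mt-Nd1 had 1356, 1324 and 1058 TPM in Cd47ΔT and 1774, 1368 and 1206 TPM in Cd47f/f cDC2s. mt-Nd2 had 645, 690.2 and 489 TPM in Cd47ΔT and 863, 753 and 586 TPM in Cd47f/f cDC2s. For both genes library 3 of each genotype was the lowest of its group and the ranges overlapped. mt-Nd4 was at 873, 864 and 680 TPM in Cd47ΔT and 1142, 934 and 793 TPM in Cd47f/f cDC2s. mt-Nd5 was at 666, 703 and 542 TPM in Cd47ΔT and 939, 754 and 678 TPM in Cd47f/f cDC2s, and mt-Nd6 at 86.0, 88.8 and 70.7 TPM in Cd47ΔT and 108, 96.9 and 87.9 TPM in Cd47f/f cDC2s. The log2 fold changes of these 5 genes lay between -0.31 and -0.21, with limma adjusted p from 0.43 to 0.64.

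mt-Cytb had 1403, 1481 and 1088 TPM in Cd47ΔT and 1900.1, 1518 and 1424 TPM in Cd47f/f cDC2s (log2 fold change -0.29, SE 0.15, limma adjusted p = 0.48). mt-Co1 had 2407, 2544 and 2017 TPM in Cd47ΔT and 3231, 2778 and 2350.3 TPM in Cd47f/f cDC2s (log2 fold change -0.26, SE 0.14, limma adjusted p = 0.50). mt-Atp8 had 3147, 3823 and 2801 TPM in Cd47ΔT and 4143, 4224 and 3728 TPM in Cd47f/f cDC2s (log2 fold change -0.32, SE 0.13, limma adjusted p = 0.35). In each of the 3 genes at least 1 Cd47ΔT library lay above the lowest Cd47f/f library.

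The deposited values of 5 members with copies varied widely among cDC2 libraries, whereas mt-Co1 and mt-Nd4 held 99.8% or more of their pair in each, so the sums of mt-Co1 and mt-Nd4 are not listed. mt-Co2 had 0, 63.6 and 0 TPM in Cd47ΔT and 40.6, 0 and 0 TPM in Cd47f/f cDC2s, and mt-Co3 had 0, 0.11 and 0.01 TPM in Cd47ΔT and 118, 0.04 and 0.18 TPM in Cd47f/f cDC2s. Neither passed the filter of 1 TPM in at least 3 cDC2 libraries. mt-Atp6 had 149.8, 90.9 and 232 TPM in Cd47ΔT and 264, 616 and 1033 TPM in Cd47f/f cDC2s, without overlap, and was not called (log2 fold change -1.91, SE 0.50, limma adjusted p = 0.15). mt-Nd3 was at 249.8, 196 and 36.7 TPM in Cd47ΔT and 455, 407 and 288 TPM in Cd47f/f cDC2s, also without overlap (log2 fold change -1.62, SE 0.64, limma adjusted p = 0.32). These 2 were the only members tested in cDC2s without overlap, 2 of 13, against 13.5% of all genes that were lower without overlap. mt-Nd4l was at 52.9, 0 and 268 TPM in Cd47ΔT and 118, 132 and 185 TPM in Cd47f/f cDC2s, with an SE of 1.73 on the log2 scale.

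Summed with their copies, the same messages varied less among the cDC2 libraries. mt-Atp6 was at 2617, 2743 and 2229 TPM in Cd47ΔT and 3621, 3116 and 2648 TPM in Cd47f/f cDC2s, a log2 fold change of -0.30 (SE 0.14, limma adjusted p = 0.41). mt-Nd3 was at 405, 405 and 430 TPM in Cd47ΔT and 543, 407 and 374 TPM in Cd47f/f cDC2s, a log2 fold change of -0.08 (SE 0.14, limma adjusted p = 0.85). mt-Co3 was at 1133, 1077 and 897 TPM in Cd47ΔT and 1414, 1139 and 1121 TPM in Cd47f/f cDC2s, a log2 fold change of -0.24 (SE 0.13, limma adjusted p = 0.49). mt-Nd4l was at 1762, 1413 and 1134 TPM in Cd47ΔT and 1926, 1560 and 1571 TPM in Cd47f/f cDC2s, a log2 fold change of -0.25 (SE 0.17, limma adjusted p = 0.58). Of 15 sums tested in cDC2s, 0 were called by limma and 1 had an unadjusted p under 0.05, with 0.382% of all genes called lower. Only mt-Co2 among the 15 sums did not overlap, at 1727, 1730.0 and 1370 TPM in Cd47ΔT and 2310, 1949 and 1758 TPM in Cd47f/f cDC2s (log2 fold change -0.32, SE 0.14, limma adjusted p = 0.38).

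The rRNAs were the most abundant members in cDC2s. mt-Rnr2 had 31290, 31737 and 25536 TPM in Cd47ΔT and 40467, 35858 and 29701 TPM in Cd47f/f cDC2s. mt-Rnr1 had 21179, 21459 and 17887 TPM in Cd47ΔT and 27571, 24486 and 21085 TPM in Cd47f/f cDC2s. Both overlapped between genotypes, with log2 fold changes of -0.26 (SE 0.17) and -0.27 (SE 0.15) and limma adjusted p of 0.57 and 0.50. Their ratio, mt-Rnr2 over mt-Rnr1, was 1.43 to 1.48 in Cd47ΔT and 1.41 to 1.47 in Cd47f/f cDC2s.

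Whether the genotype effect differed between T cells and cDC2s was asked with an interaction term over the 10 libraries. Of the 13 members that passed both filters, 0 were called by limma and 1 had an unadjusted p under 0.05, against 0.3% of 10650 genes called lower and 5.4% called higher. That member was mt-Atp8, whose log2 fold change in T cells was 0.69 below that in cDC2s (difference -0.69, SE 0.20, limma adjusted p = 0.068). It was called when Cd47ΔT cDC2 library 3 was left out (limma adjusted p = 0.036, with a range of 0.036 to 0.33 over all alternatives). With copies summed in, 0 of 15 members were called, against 0.31% of 10647 genes called lower. The genotype effects on the members in T cells were therefore not shown to differ from those in cDC2s, where no member was called. Nor were they shown to be alike.

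The mRNAs were also ordered by level with copies summed in. In Cd47f/f T cells it ran from mt-Atp8 (21621 ± 2556 TPM, SD, n = 2) over mt-Co1 (17580 ± 151 TPM), mt-Atp6 (15218 ± 48.5 TPM), mt-Co2 (14002 ± 600 TPM) and mt-Co3 (12273 ± 304 TPM) to mt-Nd6 (2295 ± 61.1 TPM) and mt-Nd5 (1834 ± 27.9 TPM). Neighbours that overlapped were mt-Nd4l with mt-Nd1 and mt-Nd3 with mt-Nd4. In Cd47ΔT T cells mt-Co1 came first (13395 ± 31.0 TPM, SD, n = 2), and mt-Co2, mt-Atp8 and mt-Atp6 followed, with mt-Atp8 (10760 ± 1627 TPM) overlapping both of the others. mt-Atp8 made up 12.6% and 14.9% of the summed TPM of the 13 mRNAs in Cd47ΔT and 20.1% and 17.8% in Cd47f/f T cells, whereas mt-Co1 made up 17.6% and 16.7% in Cd47ΔT and 14.97% and 15.9% in Cd47f/f T cells. In cDC2s of both genotypes mt-Atp8 was first, mt-Atp6 and mt-Co1 overlapped behind it, and mt-Nd3 and mt-Nd6 were last.

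Levels differed between T cells and cDC2s by factors that varied with the transcript, a comparison in which cell type and kit cannot be told apart. In Cd47f/f mice every mRNA summed with its copy was higher in T cells, from 2.32-fold for mt-Nd5 to 10.02-fold for mt-Co3 among the plus-strand messages. The minus-strand message mt-Nd6 was 23.5-fold higher in T cells than in cDC2s. Relative to mt-Cytb, mt-Nd6 stood at 35.8% and 35.9% in Cd47ΔT and 33.6% and 32.2% in Cd47f/f T cells, and at 6.13%, 5.995% and 6.50% in Cd47ΔT and 5.68%, 6.38% and 6.17% in Cd47f/f cDC2s. mt-Nd5 and mt-Nd6 overlap by 14 bases at their ends on opposite strands, and mt-Nd6 differs in base composition, with 28.1% G and 5.97% C. The rRNAs went the other way: mt-Rnr1 was 59.2-fold and mt-Rnr2 125-fold higher in Cd47f/f cDC2s than in Cd47f/f T cells. Summed rRNA TPM stood at 0.007 to 0.008 of the mRNAs with copies in Cd47ΔT T cells, 0.006 in Cd47f/f T cells, 2.82 to 2.93 in Cd47ΔT cDC2s and 2.77 to 2.93 in Cd47f/f cDC2s.

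Nuclear genes that maintain, transcribe and translate the mitochondrial genome were read as lists. In T cells 0 of 21 genes of mitochondrial transcription and replication were called in either direction by limma, with 0 at an unadjusted p under 0.05, and their median log2 fold change was -0.03 against 0.10 over all genes. Tfam, which packages mitochondrial DNA and starts transcription, is named here outside the rule for naming genes, and it had 70.2 and 60.7 TPM in Cd47ΔT and 72.6 and 72.5 TPM in Cd47f/f T cells (log2 fold change -0.15, SE 0.13, limma adjusted p = 0.64). Of 31 genes of mitochondrial RNA processing and decay, 1 was called higher and 0 lower in T cells. It was Rexo2, which degrades very short RNAs, with 134 and 129 TPM in Cd47ΔT and 84.0 and 89.99 TPM in Cd47f/f T cells (log2 fold change 0.59, SE 0.11, limma adjusted p = 0.029). Lists of 17 tRNA modification genes, 22 aminoacyl-tRNA synthetases, 16 translation factors and 11 regulators of biogenesis held 0 genes called by limma, with 1, 0, 0 and 0 at an unadjusted p under 0.05. Of 78 mitochondrial ribosomal proteins 1 was called higher (Mrpl33, 218 and 206 TPM in Cd47ΔT and 149.5 and 136 TPM in Cd47f/f T cells), and of 11 stress response genes 1 was called higher (the asparagine synthetase Asns, 2.20 and 3.32 TPM in Cd47ΔT and 0.52 and 0.47 TPM in Cd47f/f T cells). Over all genes 8.5% were called higher. The counts of 1 of 78 and 1 of 31 lie below that share, and 1 of 11 lies near it. In cDC2s 0 genes of all these lists were called by limma, with between 0 and 7 per list at an unadjusted p under 0.05.

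The lists of the complexes that the mitochondrial mRNAs complete held 75 nuclear genes tested, with the inhibitor Atpif1 counted among them. Of these 75 genes, 9 were called higher in T cells by limma, against 8.5% of all genes, and 0 lower, against 0.875% of all genes. Of 37 tested complex I subunits 2 were called higher (Ndufa12 and Ndufa4), and of 9 complex III subunits 1 (Uqcr10). Of 12 complex IV subunits 3 were called higher (Cox5b, Cox7b and Ndufa4, which also stands in the complex I list). Of 18 complex V genes 4 were called higher (among them Atpif1, the inhibitor of ATP synthase, Atp5g1 and Usmg5). The counts of complexes I and III lie near the share of all genes. Cox5b had 305 and 269 TPM in Cd47ΔT and 187 and 176 TPM in Cd47f/f T cells (log2 fold change 0.66, SE 0.11, limma adjusted p = 0.021). Atpif1 had 100.2 and 105 TPM in Cd47ΔT and 55.5 and 55.7 TPM in Cd47f/f T cells (log2 fold change 0.87, SE 0.12, limma adjusted p = 0.011). Over 13 alternative settings the log2 fold change ran from 0.51 to 0.75 for Cox5b and from 0.73 to 0.91 for Atpif1. None of the genes named for these complexes was called under every setting. Summed over the complexes, with Ndufa4 counted once and the inhibitor Atpif1 left out, nuclear subunits stood at 18098 and 17250.2 TPM in Cd47ΔT and 15258 and 14022 TPM in Cd47f/f T cells.

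The ratio of mitochondrial to nuclear subunit messages was lower in every Cd47ΔT T cell library than in either Cd47f/f T cell library. Mitochondrial mRNAs with copies stood at 4.201 and 4.65 times the nuclear subunits in Cd47ΔT T cells, and at 7.65 and 7.96 times in Cd47f/f T cells. By complex, with Ndufa4 in both complex I and complex IV, the ratio was 3.60 and 4.13 in Cd47ΔT and 6.14 and 6.56 in Cd47f/f T cells for complex I, and 2.37 and 2.51 in Cd47ΔT and 3.94 and 4.36 in Cd47f/f T cells for complex III. For complex IV it was 7.25 and 7.47 in Cd47ΔT and 11.5 and 12.2 in Cd47f/f T cells, and for complex V 2.84 and 3.43 in Cd47ΔT and 6.89 and 6.74 in Cd47f/f T cells. The genotypes did not overlap for any of the 4 complexes in T cells. Of all single genes tested, 48.9% did not overlap in either direction in T cells and 19.9% in cDC2s. In cDC2s the ratio over all complexes was 1.95, 1.95 and 1.41 in Cd47ΔT and 2.57, 2.26 and 1.84 in Cd47f/f cells, with overlap. By complex it overlapped for complexes I, III and IV, while for complex V it was 1.88, 2.05 and 1.39 in Cd47ΔT and 2.54, 2.41 and 2.05 in Cd47f/f cDC2s, without overlap. These ratios are sums within a library, are free of the scaling between libraries, and carry no test.

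**Figure D4:**
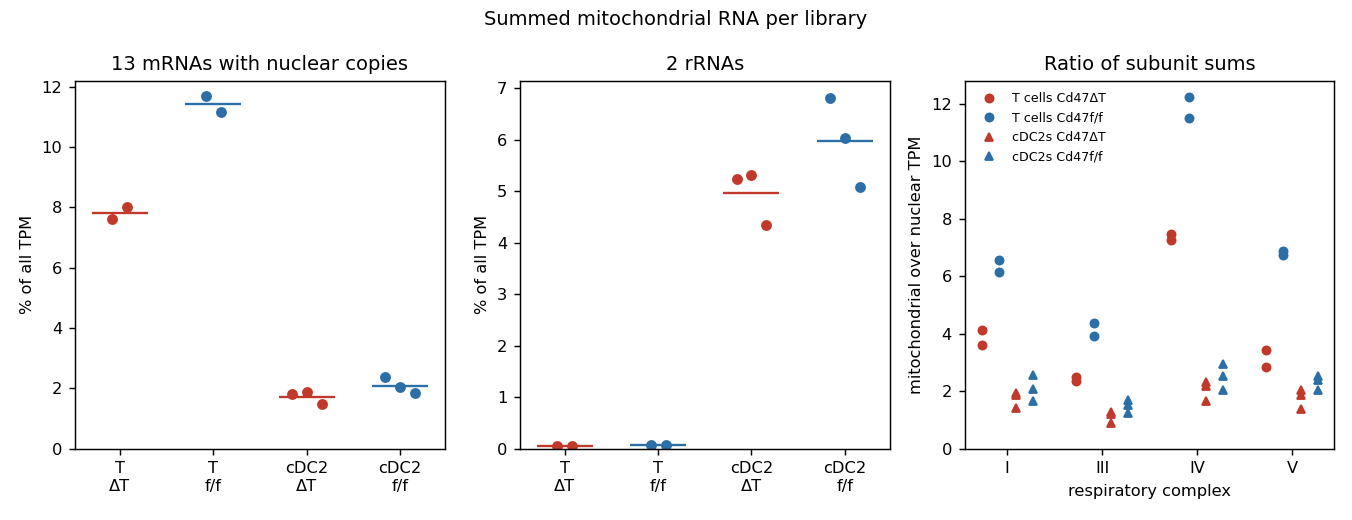
Share of all TPM taken by the 13 mitochondrial mRNAs with their copies (left) and by the 2 rRNAs (middle), and the ratio of mitochondrial to nuclear subunit TPM by complex (right), for every library, with group means as lines in the first 2 panels. The mRNA share is 7.60% and 8.01% in Cd47ΔT and 11.7% and 11.2% in Cd47f/f T cells. The ratios of Cd47ΔT T cells lie below those of Cd47f/f T cells in all 4 complexes. Of all single genes tested in T cells, 48.9% did not overlap in either direction.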

How the data were processed

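RNA of spleen T cells and cDC2s was sequenced, and the labels gave each library its cell type and genotype. The authors deposited TPM per gene. The authors' tools STAR, RSEM and DESeq2 and the build GRCm38 are named in the submitters' processing notes, without versions, settings or annotation release. No source used here says how RSEM divided reads between a mitochondrial gene and its nuclear copy, or whether it used strand. Gene identifiers were matched to GENCODE release M21 (GRCm38), and 45143 of 45706 (98.8%) matched. Nuclear copies were found with blastn 2.17.0 at 90% identity or more over at least 50% of the copy, and the 7 copies at 99% or more were paired with their gene. The sum with the copy was added after seeing the data.

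Log2(TPM + 1) values were fitted with limma 3.58.1 in R 4.3.3, with a variance trend and Benjamini-Hochberg adjustment over all genes that reached 1 TPM in 2 or more T cell (3 or more cDC2) libraries, called under 0.05. A fold change is on that scale, so it understates changes of low genes. Genotypes were compared within each cell type, and their difference as an interaction. Sums and shares carry no test. Plots were drawn with matplotlib 3.10.9 and tables made with numpy 2.4.6 and pandas 2.3.3 under Python 3.11.15, and the fits were tested on simulated data. Other pseudocounts, filters, scalings, spread estimates, blocks and left-out libraries were tried.

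The 13 mRNAs and 2 rRNAs are named with their deposited values in every library. Of each gene list, those called among the 3 members with the smallest p are named. The members and lists were chosen with earlier results of these data known. Replicate numbers were not taken as pairs.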

Additional observations from a re-analysis of the deposited data

Results flagged for a closer look

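Of 277 nuclear genes of the lists, the genotype effect differed between T cells and cDC2s by the interaction test for 3, all in the positive direction, a share of 1.08% against 5.4% of all genes. Atpif1 had a difference of 0.78 on the log2 scale (SE 0.20, limma adjusted p = 0.046), with 100.2 and 105 TPM in Cd47ΔT and 55.5 and 55.7 TPM in Cd47f/f T cells, and 567 ± 17.99 TPM in Cd47ΔT and 540.1 ± 115 TPM in Cd47f/f cDC2s (SD, n = 3). Cox5b had a difference of 0.67 (SE 0.17, limma adjusted p = 0.042), with 161 ± 16.3 TPM in Cd47ΔT and 162 ± 9.23 TPM in Cd47f/f cDC2s (SD, n = 3). Mrpl33 had a difference of 1.08 (SE 0.24, limma adjusted p = 0.022), with 39.5 ± 8.47 TPM in Cd47ΔT and 55.9 ± 5.34 TPM in Cd47f/f cDC2s (SD, n = 3), which did not overlap and were not called. Over 18 alternatives each, Atpif1 was called in 6 (limma adjusted p 0.027 to 0.23), Cox5b in 5 (0.039 to 0.29) and Mrpl33 in 9 (0.012 to 0.10).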

How the results depend on the processing

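In T cells 1167 genes were called (1058 higher and 109 lower), against 15 without a filter, 758 with a filter at 5 TPM, 2296 with a replicate block and 725 to 1568 with 1 library left out (740 to 1606 with copies summed in). Median-of-ratios scaling gave 958 higher and 244 lower and moved the median of all genes by -0.13. Members called lower numbered 11, against 0 without a filter, 3 with median-of-ratios scaling, 3 without a variance trend, 1 in a fit of all libraries and 5 to 10 with 1 library left out. With copies they were 12, 1 with median-of-ratios scaling and 2 to 12 with 1 library left out. The log2 ratio of summed mRNAs, -0.68, was -0.83 with median-of-ratios scaling and -0.55 with copies. That of rRNAs, -0.25, was -0.40 with that scaling.

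In cDC2s 76 genes were called (30 higher and 46 lower; 40 and 35 with median-of-ratios scaling, 35 and 31 with protein-coding scaling), against 6 without a filter, 12 without a variance trend, 171 in a fit of all libraries, 4 with the block and 0 to 14 with 1 library left out (0 to 15 with copies). The interaction called 607 genes (575 higher and 32 lower; 417 and 77 with median-of-ratios scaling), against 949 without a filter, 395 with a filter at 5 TPM and 302 to 607 with 1 library left out. Its members called numbered 0, and 0 to 1 with 1 library left out.

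These directions were reversed. In T cells mt-Co3 ran from -1.56 to 0.61 with 1 library left out, and Gm29216 was at -0.055 with median-of-ratios scaling and -0.22 to 0.40 with 1 library left out. In cDC2s mt-Nd3 with copies was at 0.0061 with that scaling and -0.19 to 0.080 with 1 library left out. There Cox5b was at 0.071 with that scaling, 0.054 with protein-coding scaling and -0.062 to 0.073 with 1 library left out. In the interaction mt-Rnr1 was at -0.048 with median-of-ratios scaling in both forms. With 1 library left out mt-Atp6 ran there from -0.62 to 0.36, mt-Nd3 from -0.13 to 1.24 and mt-Nd4l from -1.27 to 2.76. With copies mt-Nd3 was at -0.22, -0.32 and -0.45 and mt-Nd4l at -0.17, -0.27 and -0.40 in the main, protein-coding and median-of-ratios scalings. The causes were not tested.

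The replicate numbers were checked for pairing, which the labels do not state. Deviations of same-numbered libraries correlated at 0.19 in T cells, by construction alike for both pairs, and at -0.04, 0.06 and 0.12 in cDC2s. With the block 14 members were called in T cells and 0 in cDC2s. Where a T cell group was left with 1 library, that library was assumed to vary like the other group. Unknown depth and 2 libraries a group limit the T cell values.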
